A study of Mus musculus and blank sample with 91 samples.

Results

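Mice given complete Freund's adjuvant (CFA) alone were compared with untreated (naïve) mice at 19 dpi. Days are counted from immunization and written dpi, with negative values for the days before it. The 12 fecal samples, 6 CFA and 6 naïve, were chosen by their labels of treatment and day, from 91 labelled samples of which 89 were in the count table and 88 had counts. All mice were female C57BL/6. Naïve mice received nothing. CFA mice received only the adjuvant, in the amount used for mice immunized against a myelin peptide (EAE, experimental autoimmune encephalomyelitis), and the labels name pertussis toxin for the EAE mice only. No age is given in the labels. The same 12 mice (543 to 548 for CFA, 558 to 563 for naïve) were also sampled at -2 dpi, before any treatment, so a difference at 19 dpi could be separated into one that was already there and one that was not. Mice were kept 2 to 3 to a cage and treatment was assigned by cage. The labels do not name cages, so cage and treatment cannot be told apart, and p-values over mice count cage mates as separate mice.

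Complete Freund's adjuvant is an oil emulsion with killed mycobacteria that drives a strong innate immune response, and mice given it without a self antigen are the usual control for EAE. The mouse gut community is built mainly of Firmicutes, such as lactobacilli and the spore-forming Clostridia, and of Bacteroidetes such as Prevotella. Other residents, such as the mucin-degrading Akkermansia, are common in some colonies and cages and absent from others.

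What was counted were reads of a stretch of the bacterial 16S rRNA gene, and each level below is a percent of a sample's counts. At 19 dpi, totals ranged from 36163 to 68716 counts in CFA mice and from 63302 to 95100 in naïve mice, and the naïve samples were deeper (exact permutation test, p = 0.00866). At -2 dpi the totals overlapped (p = 0.786, exact permutation test). A floor of 3 counts per sample was set as the limit of detection, on average 0.00616% in CFA mice at 19 dpi. This is a chosen setting, since some sequence variants stood at 2 counts in a sample, while the lowest genus count above 0 was 4. The floor covers counting error only, while the 95% intervals of differences given below were taken from the exact permutation test and cover the spread between mice. Of 678 genus values above 0 in the 24 samples of -2 and 19 dpi, 17 (2.51%) lay under 0.1%. A genus was thus mostly either at 0 or well above the floor. Whether a level between the floor and 0.1% would have been seen was not tested. Each fold above a floor given below thus holds only if 3 counts was the limit of detection. Pseudomonas E and Eukaryota, looked at as signs of DNA from outside the gut community, had 0 counts in all 12 samples at 19 dpi. Relative counts do not tell more of a bacterium from less of the others.

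Of the 6 families at a group mean of 5% or more at 19 dpi, 1 separated the groups and 5 overlapped. Lactobacillaceae, the lactic acid bacteria, ranged from 19.5% to 52.3% in CFA mice with a median of 37.8%, and from 6.59% to 38.1% in naïve mice with a median of 22.6%. The groups overlapped widely. The difference of 13.9 points (95% interval -1.66 to 29.5) did not pass the test (edgeR quasi-likelihood test, log2 fold change 0.73 ± 0.81 SE, adjusted p = 0.957). Nearly all of it was 1 sequence, Lactobacillus johnsonii variant 1, at means of 36.6% and 22.7%.

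Lachnospiraceae, a family of butyrate-producing and other fermenting Clostridia, stood at 20.1% ± 7.71 in CFA mice and 21.0% ± 6.22 in naïve mice (SD, n = 6 each). Prevotellaceae, which ferment plant polysaccharides, stood at 19.0% ± 8.11 and 15.2% ± 3.93. Ruminococcaceae stood at 6.70% ± 1.72 and 6.81% ± 2.45. The 95% intervals of these 3 differences all included 0 (-9.94 to 8.25, -5.05 to 12.0 and -2.84 to 2.61 points), and their adjusted p was 1.00 in edgeR. The sign of the Lachnospiraceae difference in edgeR (log2 fold change -0.0045) was not stable over alternative settings, nor was that of Ruminococcaceae. The level of Prevotellaceae depends on the deposited names. Its leading sequence, Prevotella_NA variant 1, held 19.8% ± 4.56 in CFA and 17.6% ± 3.21 in naïve mice. The part of that sequence named Prevotella held 17.3% and 15.2%.

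Erysipelotrichaceae, here almost entirely the spore former Turicibacter, ranged from 0% to 26.7% in CFA mice and from 2.63% to 16.4% in naïve mice. CFA mouse 546 had none, and CFA mouse 545 had the most of all 12 mice. Means of 12.7% ± 10.2 and 8.18% ± 6.19 did not differ beyond this spread (difference 4.56 points, 95% interval -6.53 to 15.7).

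Verrucomicrobiaceae, represented by Akkermansia, was the family at 5% or more that separated the groups. It was at 0 in 6 of 6 CFA mice and at 17.0% ± 8.52 in naïve mice.

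**Figure D1:**
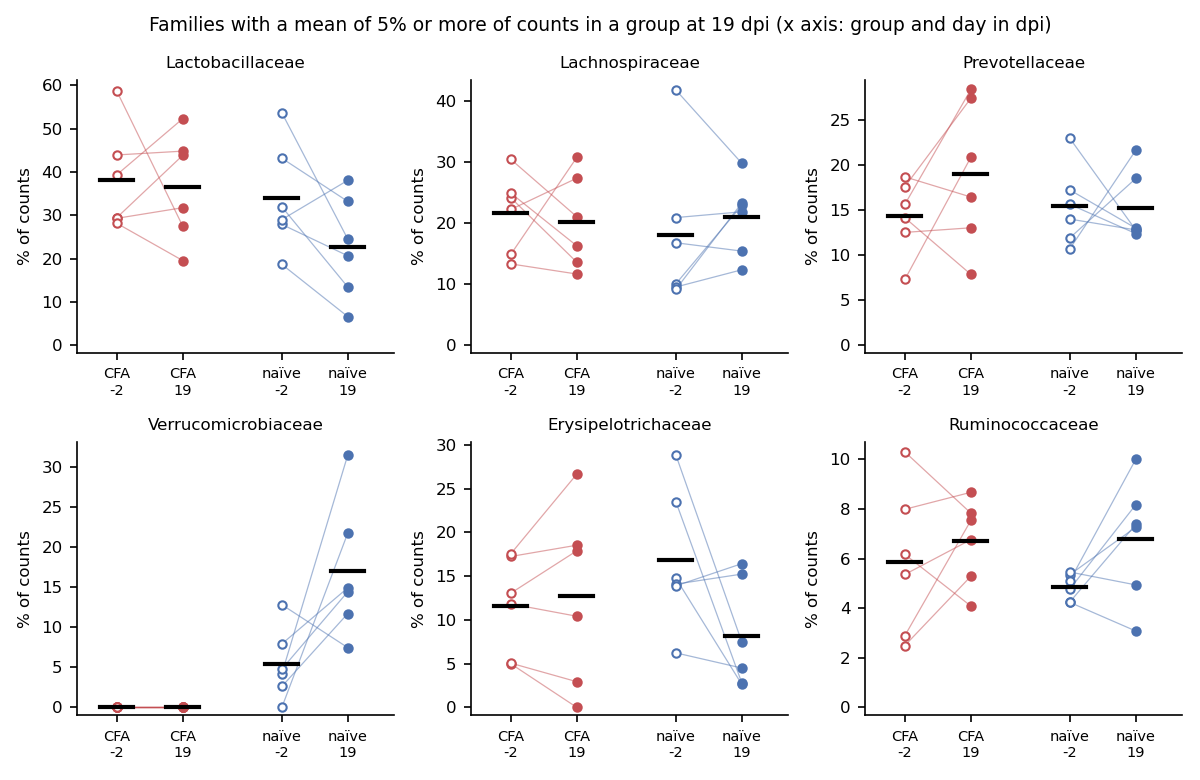
Percent of counts (y axis) of the 6 families with a group mean of 5% or more at 19 dpi, at -2 dpi (open points) and 19 dpi (filled points) in 6 CFA (red) and 6 naïve (blue) mice. Thin lines join the samples of a mouse and black bars are group means. Verrucomicrobiaceae lies at 0 in every CFA sample of both days and at 7.46% to 31.5% in the naïve mice at 19 dpi, while the groups overlap in the other 5 families.

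Over all taxa with counts in at least 3 of the 88 samples, edgeR called 3 of 23 families at 19 dpi (13%), all lower in CFA mice, at an adjusted p under 0.05. It called 5 of 65 genera (7.69%), of which Stomatobaculum was higher (1.54% of genera) and Akkermansia, Peptococcus-rc4-4, Acetatifactor and Adlercreutzia were lower (6.15%). At -2 dpi, before any treatment, it called 2 families (8.7%) and 5 genera (7.69%). The number of called genera was thus the same before immunization and at 19 dpi. Both families and 3 of the 5 genera called at -2 dpi were called again at 19 dpi with the same sign.

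A difference at 19 dpi was taken as present before immunization if it was also called at -2 dpi with the same sign. It was taken as new if the change since -2 dpi differed between the treatments with that sign (the interaction term in edgeR), and as unresolved if neither held. For the change itself edgeR called 0 of 23 families (0%), with 2 at an unadjusted p under 0.05, and 2 of 65 genera (3.08%). Of the 3 families at 19 dpi, Verrucomicrobiaceae and Peptococcaceae were present before and Coriobacteriaceae was unresolved. Of the 5 genera, 3 were present before (Akkermansia, Peptococcus-rc4-4, Stomatobaculum), 1 was new (Acetatifactor) and 1 was unresolved (Adlercreutzia). Where a taxon was at 0 in all mice of a treatment on both days, the interaction could not be estimated, so a further divergence after immunization could not be called for it.

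**Figure D2:**
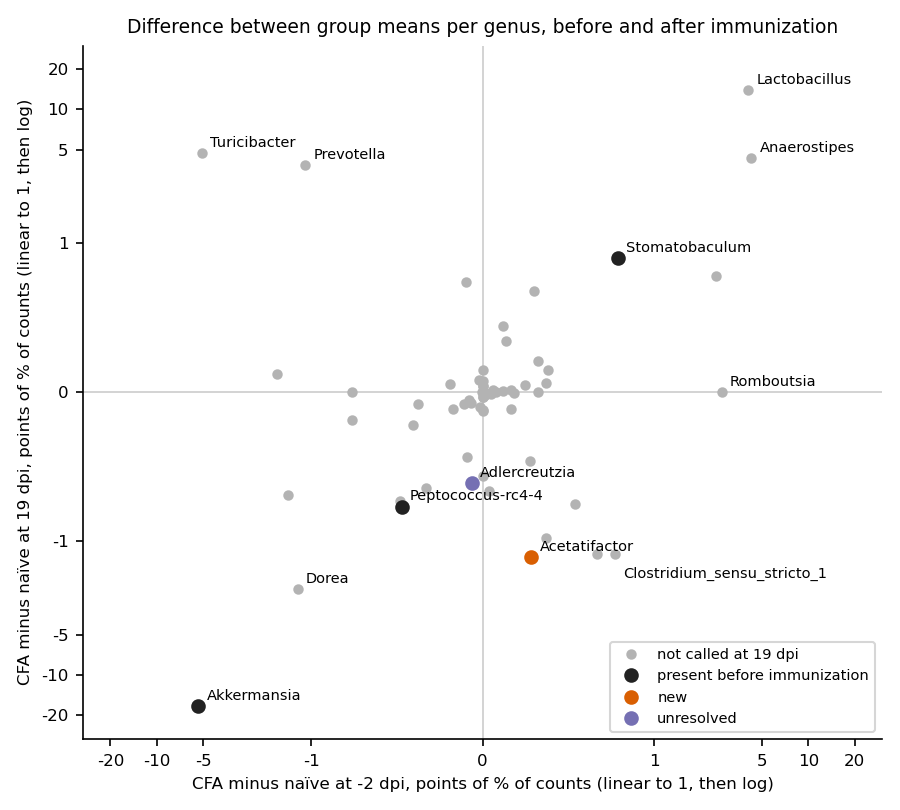
Difference between the mean percent of counts of CFA and naïve mice for each genus at -2 dpi (x axis) and at 19 dpi (y axis), in points of percent, on axes that are linear up to 1 and logarithmic beyond. Akkermansia lies far below 0 and Anaerostipes and Stomatobaculum above 0 on both days. Black points are genera called on both days, orange is new (Acetatifactor, which changes sign), purple unresolved (Adlercreutzia) and grey not called at 19 dpi.

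As a check that rests on no model of the spread, percents were compared by exact permutation tests over the 924 arrangements of 6 against 6 mice, whose smallest p is 0.00216. Of 19 families with counts at 19 dpi, 2 passed after adjustment (10.5%), Verrucomicrobiaceae and Clostridiaceae, and for the change per mouse 2 of 23 (8.7%), Clostridiaceae and Peptostreptococcaceae. Of 57 genera 4 passed (7.02%), Akkermansia, Acetatifactor, Anaerostipes and Dorea. All 4 stood at the smallest p, which arises only where the groups do not overlap, so the lack of overlap adds nothing to the test. At -2 dpi 0 families and 0 genera passed by this test, with 3 and 9 at an unadjusted p under 0.05, and for the change per mouse 0 genera passed, with 8 at an unadjusted p under 0.05. At -2 dpi Anaerostipes and Coprococcus/Eubacterium_F stood at the smallest p and still did not pass after adjustment over 55 genera. The lack of passing genera at -2 dpi thus does not show that the differences of 19 dpi were absent before.

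Akkermansia muciniphila, which lives in the mucus layer and feeds on mucin, made the largest difference in percent at 19 dpi among all genera. Naïve mice held 11.7%, 31.5%, 21.8%, 7.46%, 14.4% and 14.9% (mice 558 to 563), and all 6 CFA mice held 0 counts. Every naïve mouse was thus far above every CFA mouse. The naïve mean was at least 2755-fold above the CFA floor (edgeR, adjusted p = 0.000193; exact permutation test, adjusted p = 0.0308). The same gap was there before immunization, when naïve mice held 2.61%, 4.21%, 0%, 12.8%, 4.79% and 7.93% and CFA mice again 0 (edgeR, adjusted p = 0.000456, at least 1149-fold). Mouse 560 was the naïve mouse without Akkermansia at -2 dpi, and it held 21.8% at 19 dpi.

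Within naïve mice the level of Akkermansia was higher at 19 than at -2 dpi in 5 of 6 mice. Since CFA mice stayed at 0, this gave a difference in the change per mouse of 11.6 points that did not pass after adjustment (p = 0.0152, adjusted p = 0.158 over 64 genera, exact permutation test). Nearly all counts belonged to 1 sequence, A. muciniphila variant 1 (mean 16.97% of 16.98% at 19 dpi). EAE mice, which received the same adjuvant with the peptide and carry other mouse numbers at -2 than at 19 dpi, so that they are not followed here within mice, held Akkermansia in 4 of 6 mice at -2 dpi and in 6 of 6 at 19 dpi (3.38% to 14.5%).

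Peptococcus-rc4-4, the sole genus of Peptococcaceae here and a fermenter of peptides and amino acids, followed the same pattern at a low level. It was found in 4 of 6 naïve mice at 19 dpi (1.60%, 1.83%, 0.453% and 0.721%) and in 3 of 6 at -2 dpi (1.15%, 1.08% and 0.612%), and in no CFA mouse on either day. The mice that carried it were partly different ones, since 2 naïve mice (558 and 562) carried it on both days. The difference was called on both days (edgeR, adjusted p = 0.00976 at 19 dpi and 0.00846 at -2 dpi) and the naïve mean at 19 dpi was at least 125-fold above the CFA floor. The exact test of its percents at 19 dpi, in which the groups share mice at 0, did not pass (p = 0.0606).

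Anaerostipes, which turns lactate and acetate into butyrate, was the mirror image. CFA mice held 3.58%, 5.44%, 3.76%, 4.50%, 4.56% and 5.79% at 19 dpi and 1.97% to 5.71% at -2 dpi. Naïve mice held 0 at -2 dpi, and at 19 dpi mice 559 and 563 held 0.872% and 0.731%. The lowest CFA mouse was above the highest naïve mouse on both days. At 19 dpi the percents passed the exact test (4.60% ± 0.880 against 0.267% ± 0.416, adjusted p = 0.0308) but the genus was not called in edgeR (log2 fold change 4.34 ± 2.38 SE, adjusted p = 0.246), and at -2 dpi it was called in edgeR (adjusted p = 0.00190) but missed the threshold of the exact test after adjustment (p = 0.00216, adjusted p = 0.0595).

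Sequences resolved the 2 naïve mice. With the primers removed, all Anaerostipes counts of CFA mice were 1 sequence, Anaerostipes_NA variant 1, and this sequence was at 0 in all naïve mice on every day. The naïve counts belonged to the sequence of Coprococcus_NA variant 1, and the deposited names put some ASVs (amplicon sequence variants) of that sequence in Anaerostipes. Anaerostipes_NA variant 1 was called at 19 dpi (edgeR, adjusted p = 0.00130) and at -2 dpi (adjusted p = 0.00159), and was at least 1102-fold above the naïve floor at 19 dpi. The change of the genus Anaerostipes, which counts the naïve ASVs of the other sequence, had an adjusted p of 0.0545 in edgeR, and 0.0368 with the mouse as a block. Within CFA mice its mean was 4.27% at -2 dpi and 4.60% at 19 dpi.

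Stomatobaculum, a genus of Lachnospiraceae, was found in 5 of 6 CFA mice at 19 dpi (0.775% to 1.94%, with mouse 548 at 0) and in 5 of 6 at -2 dpi (mouse 545 at 0), and in no naïve mouse on either day. It was called on both days (edgeR, adjusted p = 0.00855 and 0.00745). Its percents at 19 dpi did not pass the exact permutation test (p = 0.0152, adjusted p = 0.123). All of its counts came from ASVs with the sequence of Lachnospiraceae_NK4A136_NA variant 2, whose other ASVs carry the name of another genus. That sequence was in 6 of 6 CFA mice at 19 dpi (1.02% to 4.27%) and in 5 of 6 at -2 dpi, and in none of the naïve mice (edgeR, adjusted p = 0.0210 and 0.0297). The genus name on its own thus split 1 sequence. At 19 dpi the sequence was in 1 more CFA mouse than the name, but its call held without 7 of the 12 mice in turn at 19 dpi and 6 of 12 at -2 dpi, while that of the name held without each of the 12 on both days.

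**Figure D3:**
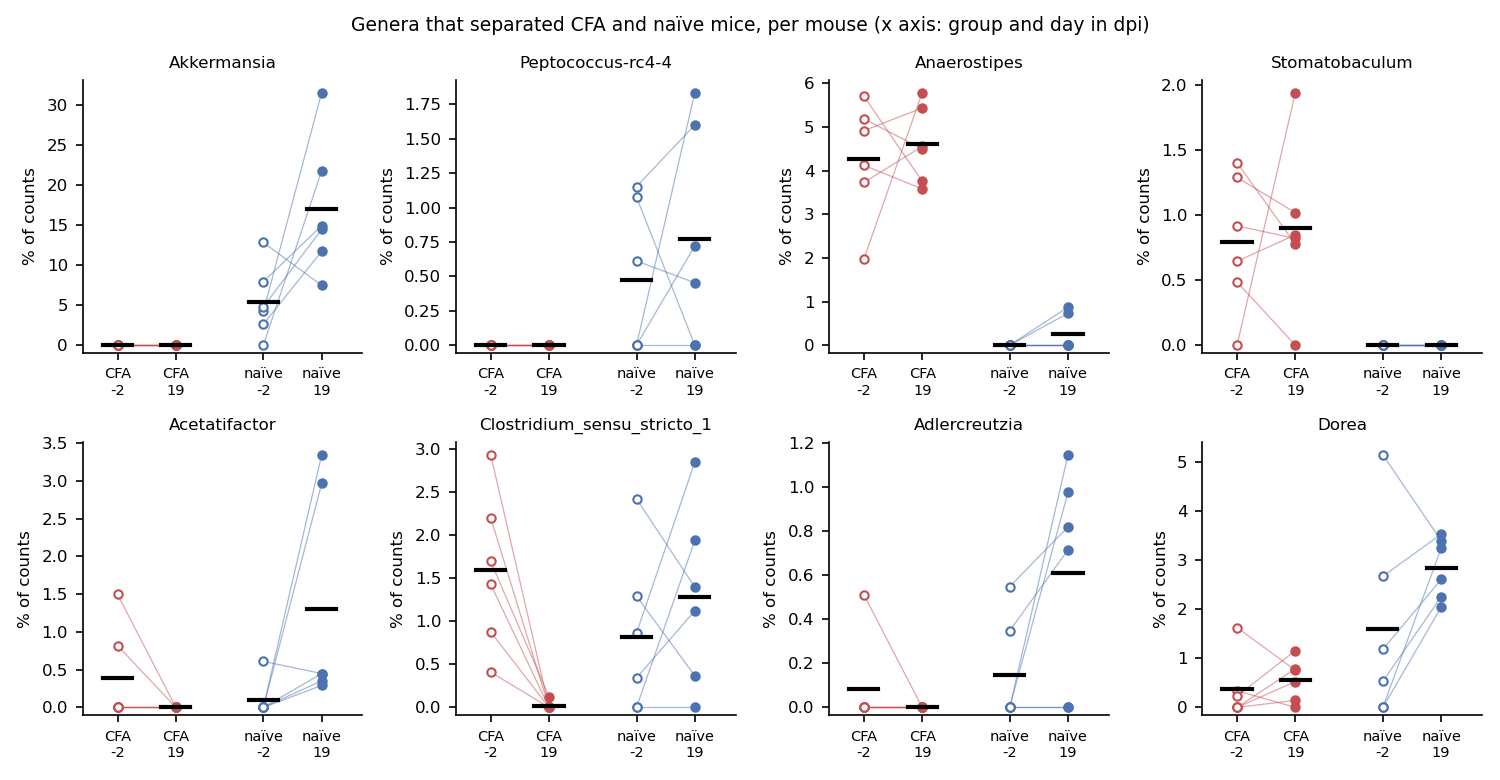
Percent of counts (y axis) of 8 genera at -2 dpi (open points) and 19 dpi (filled points) in 6 CFA (red) and 6 naïve (blue) mice, with thin lines joining the samples of a mouse and black bars for group means. Akkermansia, Peptococcus-rc4-4, Anaerostipes and Stomatobaculum differ on both days. Clostridium_sensu_stricto_1 is present in 6 of 6 CFA mice at -2 dpi and in 1 of 6 at 19 dpi. Acetatifactor is present in 2 of 6 CFA mice at -2 dpi and in 0 of 6 at 19 dpi. In naïve mice it goes from 1 of 6 to 6 of 6.

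Acetatifactor, a genus of Lachnospiraceae first isolated from the mouse caecum, was the single genus at 19 dpi classed as new. All 6 naïve mice carried it (0.449%, 2.96%, 0.291%, 3.34%, 0.352% and 0.448%) and no CFA mouse did. At -2 dpi it was in 2 of 6 CFA mice (mean 0.386% ± 0.635) and 1 of 6 naïve mice (0.102% ± 0.249), a difference that was not called (edgeR, adjusted p = 1.00). At 19 dpi the naïve mean of 1.31% ± 1.44 was at least 212-fold above the CFA floor (edgeR, adjusted p = 0.0162; exact permutation test, adjusted p = 0.0308). The change since -2 dpi was called (edgeR, adjusted p = 0.0362), and with the mouse as a block the adjusted p was 0.0240.

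That call of the change was lost when any of 11 of the 12 mice was left out (highest adjusted p = 0.0962), while the difference at 19 dpi was called without each of the 12 mice in turn. The naïve mice at 19 dpi carried 3 different sequences, Acetatifactor muris variants 1, 2 and 4, each in 2 mice. CFA mice carried Acetatifactor at other days, in 3 of 6 mice at 8 dpi, 4 of 6 at 14 dpi and 3 of 5 at 29 dpi, so its absence was seen at 19 dpi alone.

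Clostridiaceae, anaerobic spore formers, were lower in every CFA mouse at 19 dpi than at -2 dpi. At 19 dpi CFA mice held 0.125%, 0%, 0%, 0.271%, 0% and 0.241%, and naïve mice 2.24%, 0.711%, 1.94%, 0.813%, 1.62% and 3.22%. The highest CFA mouse was below the lowest naïve mouse. Before immunization it was CFA mice that held more on average (1.62% ± 0.863 against 0.937% ± 0.850), with wide overlap. The percents at 19 dpi passed the exact test (0.106% ± 0.126 against 1.76% ± 0.939, adjusted p = 0.0206), as did the change per mouse (-1.51 points in CFA and 0.820 in naïve mice, adjusted p = 0.0498). In edgeR the family was not called at 19 dpi (log2 fold change -4.15 ± 1.98 SE, adjusted p = 0.150) or for the change (adjusted p = 0.472).

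Most of this family was Clostridium_sensu_stricto_1, spore formers that include Clostridium celatum and C. disporicum. All 6 CFA mice carried the genus at -2 dpi (0.410% to 2.93%) and mouse 543 alone at 19 dpi (0.125%). The leading sequence, Clostridium celatum/disporicum variant 1, was in 5 of 6 CFA and 4 of 6 naïve mice at -2 dpi. At 19 dpi it was in 0 of 6 CFA and 5 of 6 naïve mice (mean 1.28%, at least 207-fold above the CFA floor). It was called at 19 dpi (edgeR, adjusted p = 0.00501) and for the change since -2 dpi (adjusted p = 0.0153), and both calls held without each of the 12 mice in turn. With the mouse as a block the change of this sequence was also called (adjusted p = 0.0241). For the genus the block changed the call, since the change had an adjusted p of 0.286 without it and 0.0119 with it. The percents of the genus did not pass the exact test at 19 dpi (adjusted p = 0.123) or for the change (adjusted p = 0.158), and edgeR did not call the genus at 19 dpi (adjusted p = 0.0898). Tyzzerella-Clostridium XlVb, the other genus of the family with counts in several mice, was in 1 of 6 CFA and 5 of 6 naïve mice at 19 dpi (p = 0.0152 and adjusted p = 0.123, exact permutation test).

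Dorea, gas-forming fermenters of sugars that in these names include Ruminococcus gnavus, separated fully at 19 dpi. CFA mice held 0% to 1.16% (median 0.643%) and naïve mice 2.05% to 3.54% (median 2.93%). The means of 0.563% ± 0.433 and 2.85% ± 0.631 passed the exact test (adjusted p = 0.0308), but edgeR did not call the genus (log2 fold change -2.43 ± 1.86 SE, adjusted p = 0.633). At -2 dpi the mean was also lower in CFA mice (0.367% against 1.59%) with overlap, and neither that difference (exact permutation test, p = 0.216) nor the change per mouse (p = 0.184) passed. Whether the gap at 19 dpi was new could not be resolved.

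Adlercreutzia, the sole genus of Coriobacteriaceae here and known for turning soy isoflavones into equol, was in 4 of 6 naïve mice at 19 dpi (0.716% to 1.15%) and in no CFA mouse. It was called at 19 dpi (edgeR, adjusted p = 0.0394), but not when any CFA mouse was left out (highest adjusted p = 0.0826). At -2 dpi 1 CFA mouse (0.512%) and 2 naïve mice (0.348% and 0.549%) carried it, and the change was not called (adjusted p = 0.198), so the difference was unresolved. Adlercreutzia was in 6 of 6 naïve and 3 of 6 CFA mice at 14 dpi, and in 2 of 6 naïve and 0 of 5 CFA mice at 29 dpi.

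The total of Lachnospiraceae did not separate the groups, while some of its genera did. Its leading genus, Lachnospiraceae_NK4A136-Clostridium XlVa, stood at 4.19% ± 2.46 in CFA and 4.94% ± 2.99 in naïve mice, and Roseburia at 3.15% ± 2.26 and 2.37% ± 1.65. Hungatella stood at 1.27% ± 1.03 and 0.820% ± 0.746. These 3 overlapped in both groups and were not called (edgeR, adjusted p = 1.00 each).

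Lachnospiraceae_UCG-001 was at 0 in all 12 mice at -2 dpi and in all CFA mice at 19 dpi, and was found in 3 of 6 naïve mice (0.561% ± 0.735), which did not pass (edgeR, adjusted p = 0.0510; exact permutation test, adjusted p = 0.576). Lachnospiraceae_FCS020-Clostridium XlVa was at 0 in CFA mice and in 2 of 6 naïve mice at 19 dpi (adjusted p = 0.0655), after 2 CFA and 5 naïve mice at -2 dpi. The lower Acetatifactor and Dorea in CFA mice thus stood beside the higher Anaerostipes and Stomatobaculum in a family whose total differed by -0.827 points.

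In Ruminococcaceae the leading genera were Ruminococcaceae_UCG-014 (2.03% ± 0.834 in CFA and 1.29% ± 1.22 in naïve mice) and the fibre-degrading Ruminococcus (1.63% ± 0.772 and 1.42% ± 1.72). Flavonifractor stood at 0.760% ± 0.662 and 1.40% ± 0.670 and Flintibacter at 0.117% ± 0.180 and 0.779% ± 1.09. No genus of Ruminococcaceae was called at 19 dpi. Oscillibacter, of the family Oscillospiraceae, had a mean of 0.875% ± 0.966 in CFA and 2.13% ± 0.874 in naïve mice, which did not pass after adjustment (exact permutation test, p = 0.0368, adjusted p = 0.262).

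Some differences seen before immunization were gone at 19 dpi. Romboutsia, a spore former and the sole genus of Peptostreptococcaceae here, was in 6 of 6 CFA mice at -2 dpi (4.35%, 3.12%, 3.35%, 0.565%, 4.68% and 1.05%) and in naïve mouse 558 alone (0.666%). At 19 dpi all 12 mice held 0. The family fell by 2.85 points in CFA mice against 0.111 in naïve mice (exact permutation test, adjusted p = 0.0498), and in edgeR it fell within CFA mice (adjusted p = 0.00667) and, on mouse 558 alone, within naïve mice (adjusted p = 0.0464). Both groups ended at 0, so the difference in the change equals the difference at -2 dpi, which did not pass on its own (exact adjusted p = 0.0866, edgeR adjusted p = 0.228). Among EAE mice, with other mouse numbers on each day, 2 of 6 held Romboutsia at -2 dpi and 6 of 6 at 19 dpi.

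Coprococcus/Eubacterium_F, a genus of Lachnospiraceae, did not overlap between the groups at -2 dpi (0.614% ± 0.522 in CFA and 2.27% ± 0.760 in naïve mice), at the smallest p the exact test allows but not past the threshold after adjustment (p = 0.00216, adjusted p = 0.0595). At 19 dpi it stood at 0.440% ± 0.533 and 0.320% ± 0.509. The change per mouse did not pass after adjustment (exact permutation test, p = 0.00866, adjusted p = 0.158), and edgeR called neither day nor the change.

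Muribaculum, a mouse gut member of the Bacteroidales, was called lower in CFA mice at -2 dpi (edgeR, adjusted p = 0.0422) on the counts of naïve mouse 558 alone (4.56%), and was at 0 in all 12 mice at 19 dpi. The call at -2 dpi held without 5 of the 12 mice in turn and was lost without the others. Anaerostipes was the other genus called at -2 dpi and not at 19 dpi. Phocea/Angelakisella was called for the change (adjusted p = 0.0362) without a call on either day. It was in 3 CFA mice at -2 dpi (0.225% to 0.453%) and in 2 naïve mice at 19 dpi (0.221% and 0.457%), as different sequences, and with the mouse as a block the call was lost (adjusted p = 0.527).

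The same 12 mice over the other days put 19 dpi in place, with 5 CFA samples at 29 dpi. Akkermansia was at 0 in all CFA mice on all 5 days, and was called lower in CFA mice on each (edgeR, adjusted p from 0.000161 to 0.000456). Anaerostipes_NA variant 1 was present in every CFA mouse on each day and in no naïve mouse on any day. Peptococcus-rc4-4 was called lower and Stomatobaculum higher in CFA mice at 8, 14 and 29 dpi as well, when edgeR called 21.5%, 9.23% and 7.69% of the 65 genera.

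Turicibacter showed the widest swing. It was at 11.4% ± 5.57 in CFA mice at -2 dpi, at 0 in all 6 at 8 dpi, at 0.845% ± 1.34 at 14 dpi, at 12.7% ± 10.1 at 19 dpi and at 33.6% ± 11.9 at 29 dpi. Naïve mice held 16.5% ± 8.00, 17.5% ± 15.3, 15.4% ± 13.7, 7.97% ± 6.20 and 7.58% ± 13.8 on these days. Erysipelotrichaceae was accordingly called lower in CFA mice at 8 dpi (edgeR, adjusted p = 0.00214) and at 14 dpi (adjusted p = 0.0477), when 21.7% and 17.4% of the 23 families were called, and not at 19 dpi. At 19 dpi its level in CFA mice was back near that of -2 dpi on average, with a wider spread.

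Clostridium_sensu_stricto_1 was at 0 in all CFA mice at 8 dpi, in 1 of 6 at 14 dpi (0.0364%) and 1 of 6 at 19 dpi, and in 3 of 5 at 29 dpi (mean 3.45% ± 3.25). Naïve mice carried it in 2 of 6, 2 of 6, 5 of 6 and 3 of 6 mice on these days. Both groups were thus low at 8 and 14 dpi, and at 19 dpi most naïve mice and a single CFA mouse held it.

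**Figure D4:**
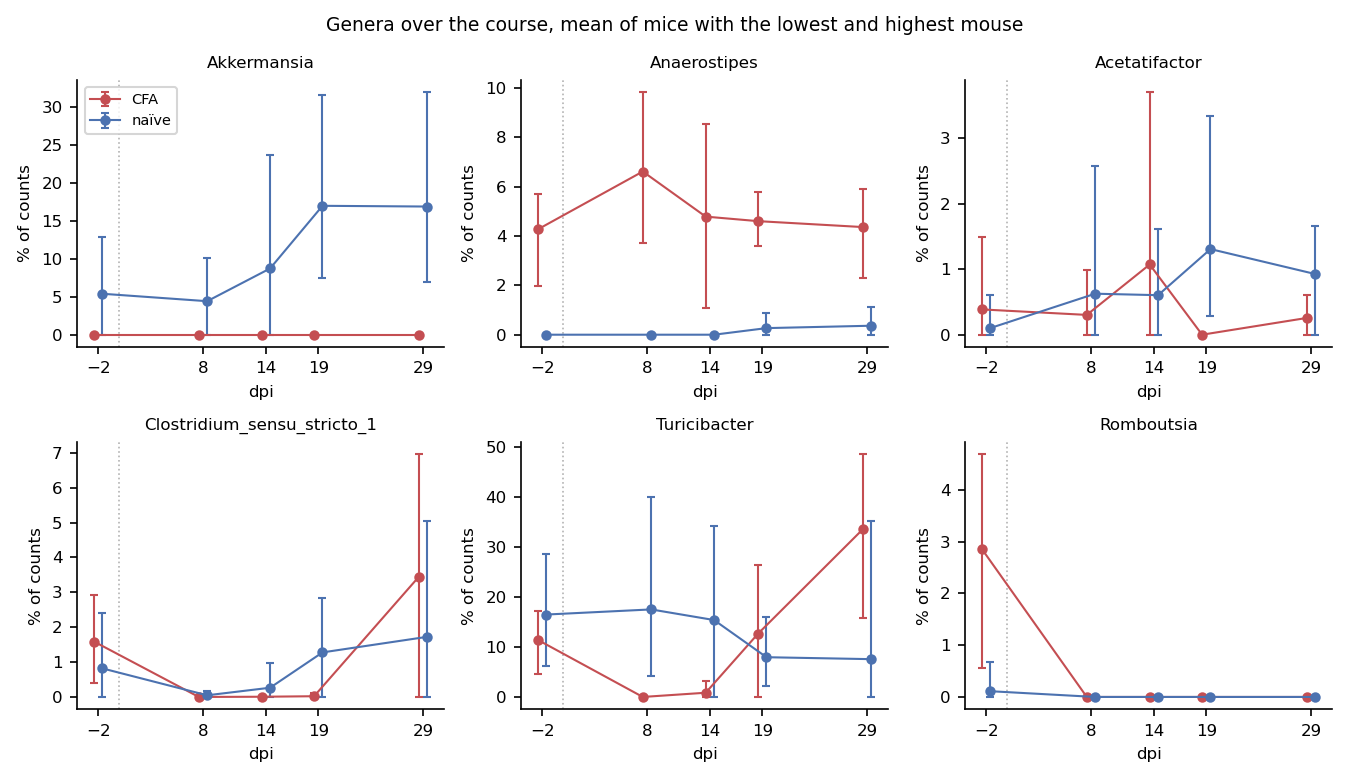
Mean percent of counts (y axis) of 6 genera by day (x axis, dpi) in CFA (red) and naïve (blue) mice, 6 mice per point except 5 CFA mice at 29 dpi. Bars run from the lowest to the highest mouse and the dotted line marks immunization. Akkermansia is at 0 in CFA mice throughout, Turicibacter is at 0 in CFA mice at 8 dpi and at 12.7% at 19 dpi, and Romboutsia is at 0 in both groups after -2 dpi.

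Lists of genera by function gave few calls. Of 9 genera of butyrate producers tested, 0 were called at 19 dpi and 1 at -2 dpi (Anaerostipes, higher in CFA mice), beside 7.69% of all 65 genera on each day, so counts this small are near that share. Their summed level at 19 dpi was 7.35% to 12.9% in CFA mice (mean 9.57% ± 2.29) and 1.15% to 8.34% in naïve mice (4.82% ± 2.33), and at -2 dpi 11.7% ± 3.12 and 6.49% ± 4.75. The difference in Anaerostipes at 19 dpi was 4.34 points. The median log2 fold change of the list was 0.46 at 19 dpi and 0 at -2 dpi, against -0.04 and 0 over all 65 genera.

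The mucin degraders on the list were Akkermansia alone, described above. Of 2 lactic acid bacteria (Lactobacillus and Enterococcus), 3 genera of Bacteroidales, 4 of Erysipelotrichaceae, 3 of plant fibre degraders, 2 acetogens and 3 Mollicutes tested, 0 were called at 19 dpi. The median log2 fold change of the lactic acid pair was -4.10, opposite in sign to its summed level (36.6% in CFA and 22.8% in naïve mice), since Enterococcus was in a single naïve mouse and no CFA mouse. Acetogens (Blautia and Marvinbryantia) were at 0 in all CFA mice at 19 dpi and at a mean of 0.221% ± 0.312 in naïve mice. Plant fibre degraders stood at 1.77% ± 0.903 and 1.49% ± 1.79, and Mollicutes at 0.450% ± 0.655 and 0.301% ± 0.356. Bacteroidales stood at 21.5% ± 5.66 and 17.6% ± 3.22.

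Of 9 Clostridia that the study names in EAE mice, 0 were called between CFA and naïve mice on either day, which is near the 7.69% called among all genera. That list was chosen on samples of this series and is not independent evidence of a direction. Its summed level was 6.74% ± 2.16 in CFA and 2.39% ± 1.42 in naïve mice at -2 dpi, and 2.37% ± 1.49 and 3.97% ± 2.13 at 19 dpi. For the change since -2 dpi, 0 of the 9 were called. None had a positive fitted sign, but the signs alone do not show a shared fall. The median log2 change of the list was -1.68, and over all genera it was also below 0 (-0.56). The signs of Romboutsia (-4.38, SE 15253) and Marvinbryantia (-9.18, SE 36094) could not be estimated. Both groups were at 0 for Romboutsia at 19 dpi and for Marvinbryantia at -2 dpi. The change of Anaerotignum was -0.14 with an SE of 3.58. Romboutsia and Clostridium_sensu_stricto_1 are both on this list.

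At the level of sequences, 26 of 203 variants were called at 19 dpi (12.8%), 12 higher (5.91%) and 14 lower (6.9%) in CFA mice, against 11 at -2 dpi (5.42%). For the change since -2 dpi 12 were called (5.91%), of which 4 were also called at 19 dpi. Of the 26, 7 were present before immunization, 4 were new and 15 unresolved, and 6 of the 26 rested on counts in a single mouse. The 7 that were present before held 8.02% of counts in CFA mice and 18.2% in naïve mice at 19 dpi, mostly Anaerostipes_NA variant 1 and A. muciniphila variant 1. The 4 new ones held 0.440% and 2.89%. These counts depended on single mice. Without any 1 of the CFA mice 6 variants were called, without naïve mouse 558, 559, 560, 561 or 562 there were 3, and without naïve mouse 563 there were 15. Anaerostipes_NA variant 1, A. muciniphila variant 1 and Clostridium celatum/disporicum variant 1 were called without each of the 12 mice in turn.

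By family, 13 of 85 Lachnospiraceae variants tested were called at 19 dpi (7 higher and 6 lower in CFA mice), 3 of 69 Ruminococcaceae variants and 2 of 9 Oscillospiraceae variants, beside 12.8% of all variants, and the Lachnospiraceae count is near that share. The variants present before immunization included a pair of Roseburia, another butyrate producer. Roseburia 14-2 variant 2 was in 5 of 6 CFA mice at -2 dpi (mean 1.46%) and in 3 of 6 at 19 dpi (0.960%), and in no naïve mouse (edgeR, adjusted p = 0.0320 at 19 dpi and 0.0297 at -2 dpi). Roseburia 14-2-A2 variant 1 was in 3 and 2 CFA mice and no naïve mouse. Among the new ones, Eubacterium F xylanophilum variant 1 was higher in CFA mice at 19 dpi, in 3 of 6 against 0 of 6 naïve mice (adjusted p = 0.0320). At -2 dpi it had been in 4 of 6 CFA mice at 0.614% and in 5 of 6 naïve mice at 1.84%, and the change was called with the mouse as a block as well (adjusted p = 0.0447). It was also at 0 in all naïve mice at 14 and 29 dpi.

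Coprococcus_NA variant 1 and Acetatifactor muris variant 1, both classed as new and lower in CFA mice, rested on 2 naïve mice each at 19 dpi, and their changes were not called with the mouse as a block. Of the unresolved variants, Oscillibacter valericigenes variant 1 and Oscillibacter_NA variant 1 were each in 4 of 6 naïve mice and 0 of 6 CFA mice at 19 dpi (adjusted p = 0.0393 for both). Before immunization they had been in 3 and 5 CFA mice, and their changes narrowly missed the threshold (adjusted p = 0.0597 and 0.0553). Prevotella_NA variants 2, 3 and 4 were called higher in CFA mice on the counts of mouse 546 alone (means of 0.812%, 0.415% and 0.422% over the 6 CFA mice), while the leading Prevotella sequence, Prevotella_NA variant 1, stood at 19.8% ± 4.56 and 17.6% ± 3.21, ASVs of that sequence with other genus names included.

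**Figure D5:**
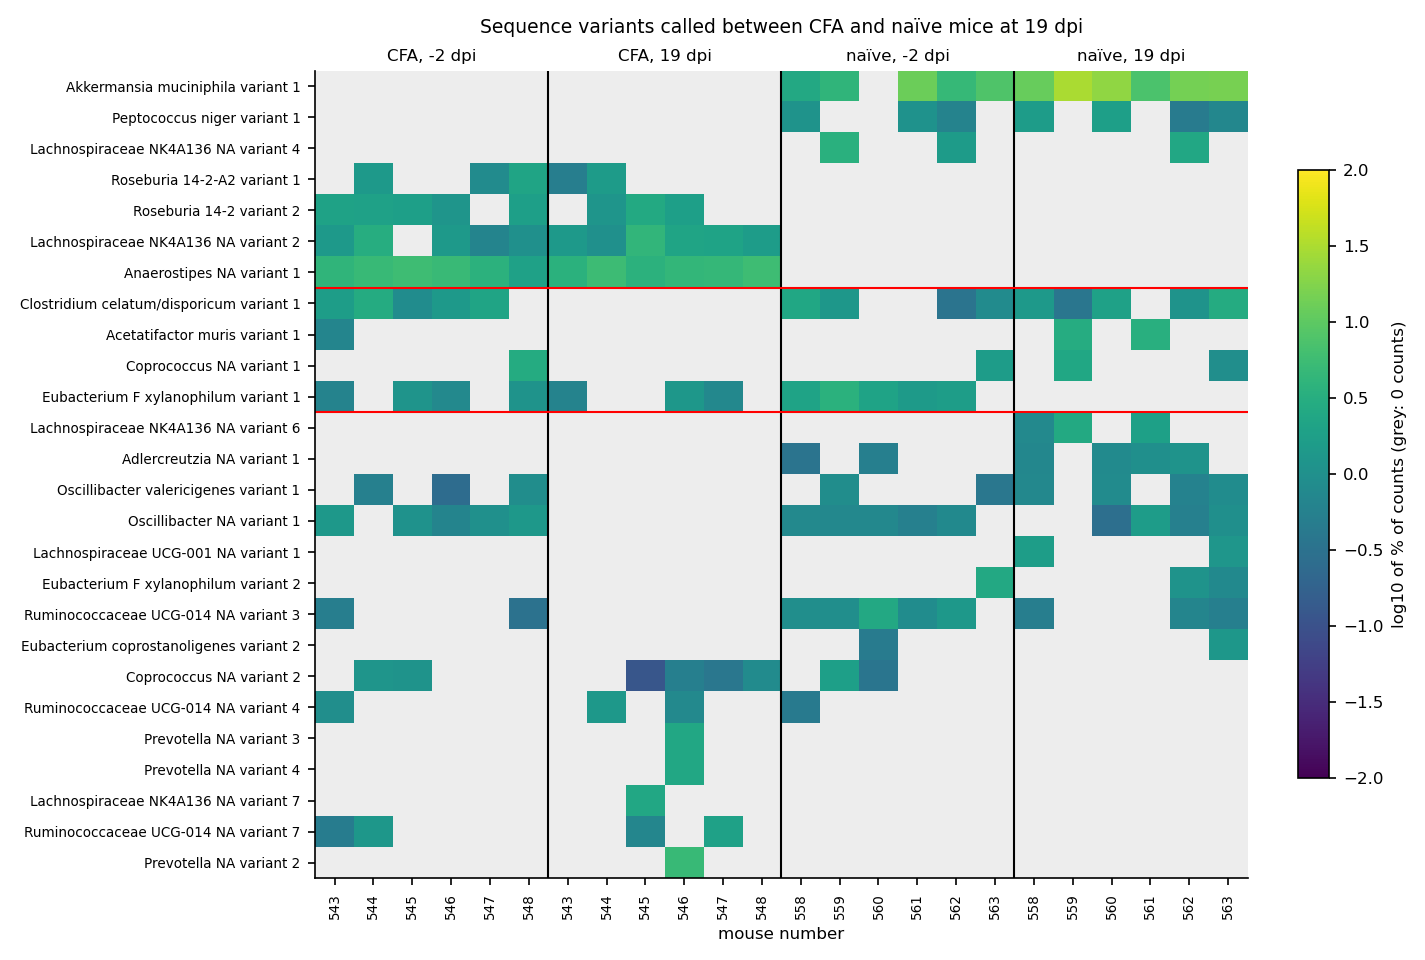
Percent of counts on a log10 colour scale for the 26 sequence variants called at 19 dpi (rows) in each CFA and naïve sample of -2 and 19 dpi (columns, by mouse number), with grey for 0 counts. Red lines part the 7 variants present before immunization (top), the 4 new ones and the 15 unresolved ones (bottom). Anaerostipes_NA variant 1 fills all 12 CFA samples, and most unresolved variants have counts in a few mice.

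Counting presence alone, 100 variants were found in CFA mice and 131 in naïve mice at 19 dpi, of which 52 were in both. Presence depends on depth, and the naïve samples were deeper at 19 dpi. At -2 dpi 112 variants were found in CFA mice and 102 in naïve mice, of which 51 were in both. Variants found in naïve mice only held 31.8% ± 13.1 of naïve counts at 19 dpi and 11.5% ± 5.22 at -2 dpi. Variants found in CFA mice only held 13.6% ± 4.68 of CFA counts at 19 dpi and 14.9% ± 5.53 at -2 dpi. Akkermansia alone was 17.0% of naïve counts at 19 dpi. A variant present in all mice of a group and none of the other was rare, with Anaerostipes_NA variant 1 and Lachnospiraceae_NK4A136_NA variant 2 in CFA mice and A. muciniphila variant 1 in naïve mice.

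As a whole community, the groups differed on both days. The share of the variance in Bray-Curtis distance between genus profiles that lay between the groups was 34.4% at 19 dpi (p = 0.00216, the smallest these permutations can give, adjusted p = 0.00649 over 3 comparisons by exact tests) and 21.0% at -2 dpi (exact p = 0.0281, adjusted 0.0422). With Akkermansia left out of the counts the share at 19 dpi was 18.3% (p = 0.0476, exact permutation test), in place of 34.4%. CFA mice at 19 dpi lay 0.283 ± 0.0760 from their own sample of -2 dpi and naïve mice 0.383 ± 0.103 (exact permutation test, p = 0.0931), a difference that did not pass.

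Shannon diversity at 19 dpi was 2.18 ± 0.438 in CFA mice and 2.60 ± 0.253 in naïve mice (difference -0.43, 95% interval -0.88 to 0.06; exact permutation test, p = 0.0671, adjusted p = 0.273 over 9 comparisons). At -2 dpi it was 2.33 ± 0.467 and 2.24 ± 0.402. The 19 dpi difference passed an unadjusted 0.05 without CFA mouse 545 (-0.50) or CFA mouse 546 (-0.56), and it was -0.08 when ASVs were counted as deposited. CFA mice held 36.7 ± 9.29 variants and naïve mice 45.0 ± 8.58 at 19 dpi. None of the 9 comparisons of diversity passed. Body weight was 19.1 g ± 0.521 in CFA and 18.9 g ± 0.621 in naïve mice (difference 0.167 g, 95% interval -0.598 to 0.898; p = 0.649, exact permutation test), and all 12 had a clinical score of 0.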

How the data were processed

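The authors sequenced 16S rRNA amplicons of feces, inferred ASVs with DADA2 and deposited raw counts per ASV and sample, with taxonomic names they curated by hand. Primers remained in 2274 of 2295 ASVs and hold 4 ambiguous positions, so ASVs that were equal without primers were summed, which left 501 sequence variants. Such ASVs did not always share a name (31 variants have more than 1 genus name and 8 have more than 1 family name). Names of families and genera were used as deposited. A sample of CFA mouse 548 at 29 dpi held no counts and was dropped, which left 88 of 89. No 2 samples held identical counts. 2 water controls were not analysed here.

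For the counts, edgeR 4.0.16 (R 4.3.3) fitted quasi-likelihood models to all 88 samples, with 15 groups (each treatment on each day), TMMwsp factors computed on genera, a filter of counts in at least 3 samples, and Benjamini-Hochberg adjustment with a threshold of 0.05. The SE given with a log2 fold change of edgeR is the absolute fold change over the square root of the F statistic. It is thus derived from the test and was not estimated by the fit. Percents, diversity, distances and weights were compared by two-sided exact permutation tests (SciPy 1.17.1). Both edgeR and the permutation tests were run on simulated data. The simulated counts for edgeR left out rare variants that the filter keeps, and had no group emptied of a variant. They thus do not test calls that rest on a group without counts or on few mice. The labels give the mouse number, so samples of -2 and 19 dpi come from the same animals, although their deviations from group means correlated only from -0.20 to 0.54 (median -0.01). Named were families called or at 5% or more, called genera, the 10 called variants with the largest fold change among those at 0.1% or more, and the members of the lists. Other taxa were named after their values were seen (Turicibacter and Romboutsia for their course, taxa that passed the exact test, and the remaining variants). Members and lists were chosen with earlier results of these data known. Alternatives were DESeq2 1.42.0 with poscounts, total counts only, no or a stricter filter, a centred log ratio in limma 3.58.1 with a pseudocount of 0.5, the compared groups only, the mouse as a block, ASVs as deposited, thinning to 36075 counts, other distances, and each mouse left out. Microbial sequences are not printed.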

Additional observations from a re-analysis of the deposited data

Results flagged for a closer look

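The change since -2 dpi differed between CFA and naïve mice by the interaction term in edgeR for 4 named taxa. The fitted differences (CFA minus naïve, log2) were -14.4 for Acetatifactor, -19.1 for Phocea/Angelakisella, -14.0 for Clostridium celatum/disporicum variant 1 and -21.7 for Acetatifactor muris variant 1. As a group at 0 enters each of them, their size depends on the prior count and is no bound on a fold change. Of the 4, the change of Clostridium celatum/disporicum variant 1 was called without each of 12 mice in turn and with the mouse as a block. That of Acetatifactor was called without 1 of the 12 mice and with the block. Those of Phocea/Angelakisella and Acetatifactor muris variant 1 were not called with the block. Among 50 groups of 6 mice examined, no mouse stood apart by Dixon's test, for which chance gives about 1 in 20.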

How the results depend on the processing

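Counts of calls moved by over 1.5 times as follows, and the cause was not tested. At 19 dpi a centred log ratio called 1 family, 9 genera and 8 variants, and DESeq2 15 genera and 74 variants. Variants at 19 dpi numbered 6 with no filter, 15 with the compared groups only and 9 as deposited ASVs. At -2 dpi DESeq2 called 4 families, 10 genera and 57 variants, and the compared groups only 1 family and 3 genera. Variants at -2 dpi numbered 5 with no filter, 26 with a stricter one and 0 as ASVs. For the change, the centred log ratio called 2 families, 4 genera and 3 variants, DESeq2 2, 12 and 32, no filter 2 variants and deposited ASVs 34. With the mouse as a replicate block the change was called for 3 genera and 3 variants (2 and 12 without it), and for 0 families with or without it. All 5 genera of 19 dpi were among those called by DESeq2 and by the centred log ratio.

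By exact test, the centred log ratio called 2 families and 4 genera at -2 dpi (0 and 0 as percents). Leaving Akkermansia out, chosen after seeing the data, called 1 family at 19 dpi, Clostridiaceae (exact permutation test, adjusted p = 0.0390). The other family called as percents, Verrucomicrobiaceae, is Akkermansia alone here, so its loss was fixed by that choice. Leaving out each mouse gave 0 to 2 genera for the change, 3 to 15 variants at 19 dpi, 2 to 7 at -2 dpi and 2 to 3 for the change, and a Shannon difference from -0.56 to -0.33 that passed the threshold without CFA mouse 545 (-0.50) or 546 (-0.56). Without each mouse, 2 to 3 families and 4 to 6 genera were called at 19 dpi.

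The log2 fold change at 19 dpi turned sign for Erysipelotrichaceae (-0.13, centred log ratio), Lachnospiraceae (1.11 centred log ratio, 0.58 DESeq2, 0.015 compared groups only, -0.13 to 0.10 leaving out a mouse) and Ruminococcaceae (-0.024 total counts, -0.11 to 0.30 leaving out a mouse), none of them called. With the naïve samples deeper at 19 dpi, a level near or under the floor of 3 counts in a CFA sample could have been missed.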
